A study of Homo sapiens with 8 samples.

Results

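The eotaxins CCL26, CCL24 and CCL11 were examined as 3 of the 20219 genes with a symbol on the array. Members were chosen by gene symbol, and CCL26 was selected on its higher value after IL-13 in control cells, with CCL24 and CCL11 as its paralogs. Each had 1 feature, CCL26 feature 8140358, CCL24 feature 8140367 and CCL11 feature 8006445, and no filter on low values was used, so all 3 were tested. The cells were MIV, the metastatic breast carcinoma line MCF10CA1a of the MCF10A series, carrying a luciferase gene (MIV-Luc). They were transduced by lentivirus with a scrambled hairpin (shSCR) or with 1 hairpin against the IL-13 receptor chain IL13RA2 (shIL13Rα2#2) and kept as puromycin-selected pools. Each was mock-treated or exposed for 16 h to IL-13 at 20 ng/ml, which made 4 groups of 2 arrays and 8 arrays in all. All groups shared the luciferase and hairpin vectors and a medium with horse serum, EGF, insulin, hydrocortisone and cholera toxin. The methods call the arrays biological replicates, and within each group the labels A and B only tell both arrays apart. A single hairpin was profiled, so an effect of losing IL13RA2 and another effect of that hairpin cannot be told apart.

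Eotaxins are secreted CC chemokines that attract eosinophils through the receptor CCR3. In airway epithelium and keratinocytes CCL26 is known as the eotaxin made in response to IL-13 and IL-4, whereas CCL11 is well known from fibroblasts and smooth muscle and CCL24 from macrophages. IL-13 signals through IL13RA1 paired with IL4R, whose kinases activate the transcription factor STAT6, and IL13RA2 binds IL-13 tightly and is widely described as a decoy. In the RefSeq annotation CCL26 and CCL24 are adjacent on chromosome 7, between HIP1 and RHBDD2, and CCL11 lies on chromosome 17 between CCL7 and CCL8.

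The sequences upstream of the start sites are shown because CCL26 and CCL24 sit side by side and differed in their values after IL-13. They are RefSeq windows of build GRCh38.p14, all on the minus strand, printed 5′ to 3′ over the 250 bases before the annotated start. CCL24 has a pair of start sites in the table, and both windows are given. Capitals mark a match to the STAT motif letters TTCNNNGAA, or to the STAT6-type form with a further N in the spacer, read on both strands. The table was searched for all 3 genes, and CCL11 was not matched in it.
CCL26, chr7:75789747-75789996: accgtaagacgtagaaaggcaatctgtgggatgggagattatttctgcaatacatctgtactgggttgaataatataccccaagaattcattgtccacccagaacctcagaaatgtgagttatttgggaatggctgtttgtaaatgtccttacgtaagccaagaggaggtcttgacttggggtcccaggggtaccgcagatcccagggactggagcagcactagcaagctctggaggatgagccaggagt
CCL24, chr7:75823373-75823622: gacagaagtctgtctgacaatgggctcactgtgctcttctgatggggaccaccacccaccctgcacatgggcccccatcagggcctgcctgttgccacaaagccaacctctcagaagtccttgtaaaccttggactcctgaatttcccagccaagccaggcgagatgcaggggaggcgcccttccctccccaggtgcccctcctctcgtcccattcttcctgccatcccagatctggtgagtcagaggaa
CCL24, other start site, chr7:75813807-75814056: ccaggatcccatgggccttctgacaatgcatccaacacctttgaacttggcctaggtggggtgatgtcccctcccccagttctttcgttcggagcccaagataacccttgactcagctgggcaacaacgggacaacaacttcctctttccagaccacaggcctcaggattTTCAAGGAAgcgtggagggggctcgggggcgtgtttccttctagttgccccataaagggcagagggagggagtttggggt
The CCL26 window held 0 matches, also when the 50 bases after the start were included. The first CCL24 window held 0 matches, and the other held 1, TTCAAGGAA, beginning 80 bases before the start. Of 35116 RefSeq promoter windows of 300 bases, 6.44% held the longer form, 7.66% held TTCNNNGAA and 13.5% held either. A match describes letters only, and its absence from these short windows says nothing about binding elsewhere.

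The targeted gene was lower in the knockdown groups. IL13RA2 measured 8.07 and 8.09 on the log2 scale on the mock-treated shSCR arrays against 6.52 and 6.34 on the mock-treated shIL13Rα2#2 arrays, a difference of -1.65 (limma adjusted p = 0.0105), with an adjusted p of up to 0.157 when 1 of these 4 arrays was left out. With IL-13 it measured 9.36 and 9.33 in shSCR and 8.23 and 8.15 in shIL13Rα2#2 cells, a difference of -1.16 (limma adjusted p = 0.0241), and this call was lost when any 1 of the 8 arrays was left out (adjusted p 0.078 to 0.214, difference -1.19 to -1.12). Knockdown cells given IL-13 thus carried IL13RA2 at 0.11 above mock-treated shSCR cells on the log2 scale (adjusted p = 0.815). All 7 basal mammary epithelial markers (among them the keratin KRT5 at 9.46 to 9.98) were above the median of the arrays' negative control features on all 8 arrays. The leukocyte marker PTPRC measured 2.27 to 2.71 and the eosinophil protein gene CLC 3.12 to 3.40, below the negative control medians of 4.12 to 4.38. Of 8 eosinophil and leukocyte markers, 3 were below these medians and 4 above them on all 8 arrays. Of 7 fibroblast and endothelial markers, 6 were above them on all 8 arrays, so this level does not tell the cell types apart.

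CCL26 measured higher after IL-13 with either hairpin, though it was selected on this in shSCR cells and was not called in knockdown cells. The measured difference was smaller where IL13RA2 was knocked down, and that contrast of responses did not pass over all features. Its log2 values were 3.68 and 3.85 in mock-treated shSCR cells (mean 3.77 ± 0.12, SD, n = 2) and 5.47 and 5.45 in IL-13-treated shSCR cells (5.46 ± 0.01, SD, n = 2). In shIL13Rα2#2 cells they were 3.57 and 3.77 without IL-13 (3.67 ± 0.14, SD, n = 2) and 4.37 and 4.67 with it (4.52 ± 0.21, SD, n = 2). The 4 mock-treated arrays lay together at the bottom, both knockdown arrays with IL-13 lay above them, and both shSCR arrays with IL-13 lay above all others. In the order of group means the IL-13-treated shSCR group stood first, the IL-13-treated knockdown group next, and the mock-treated groups overlapped.

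CCL26 differed by 1.69 on the log2 scale between IL-13-treated and mock-treated shSCR cells, a 3.24-fold higher value. This is the contrast the gene was selected on, so it is given with no test. In the same comparison limma called 0.0583% of all 29141 features at an adjusted p under 0.05 and more than 2-fold, which is given as background.

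In knockdown cells IL-13 gave a CCL26 difference of 0.85 (SE 0.14, 95% confidence interval 0.53 to 1.18), a 1.81-fold higher value. The limma p was 0.000301 before adjustment and 0.187 after it over all features, so CCL26 was not called. None of the 3 eotaxins was called there, against 0.0618% of all features. At an unadjusted p under 0.05 limma passed 2 of them, CCL26 and CCL11, and the methods' analysis of variance passed 1, CCL26, where limma passed 6.93% of all features. For 2 of the 3, CCL26 and CCL11, treated and mock-treated arrays did not overlap, as for 37.4% of all features.

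Among IL-13-treated cells CCL26 was 1.92-fold lower with the knockdown, a log2 difference of -0.94 (SE 0.14, 95% confidence interval -1.26 to -0.62). Its limma p was 0.000158 before adjustment and 0.128 after, which did not pass. Once limma's prior was made robust and allowed to follow intensity, the adjusted p was 0.0358, still under the 2-fold limit, and with the 4 arrays alone it was 0.485. By limma 0.0515% of all features and 0 of the 3 eotaxins were called in this comparison. CCL26 alone passed unadjusted, by limma (7.07% of all features) and by the analysis of variance, and it alone of the 3 had arrays that did not overlap, as did 36.4% of all features. These arrays include the IL-13-treated shSCR pair that CCL26 was selected on, so the value is not independent of the selection.

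Without IL-13 the knockdown left CCL26 within the spread of the arrays, with a log2 difference of -0.10 (95% confidence interval -0.42 to 0.22, limma adjusted p = 0.865). Against mock-treated shSCR cells, knockdown cells with IL-13 stood 0.75 higher (95% confidence interval 0.43 to 1.08, limma adjusted p = 0.107), a 1.69-fold higher value. Both comparisons share the mock-treated shSCR arrays with the contrast used for selection. In the comparison without IL-13, 0.0652% of all features were called, and in the comparison of both treatments 0.154%, with 0 of 3 eotaxins in either. Unadjusted, limma passed only CCL11 in the first and only CCL26 in the second, and the analysis of variance passed none and CCL26. Of all features limma passed 9.51% and 9.56% unadjusted in these comparisons.

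The difference between both IL-13 responses of CCL26, tested as an interaction, was -0.84 on the log2 scale (SE 0.20, 95% confidence interval -1.30 to -0.38). Its limma p was 0.00286 unadjusted and 0.989 adjusted. In the interaction 0% of features passed at an adjusted p under 0.05, where 1304 passed unadjusted (4.47%), and CCL26 ranked 66th by p. The interaction again uses the arrays that CCL26 was selected on, and a smaller response in the knockdown cells was not called over all features.

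**Figure D1:**
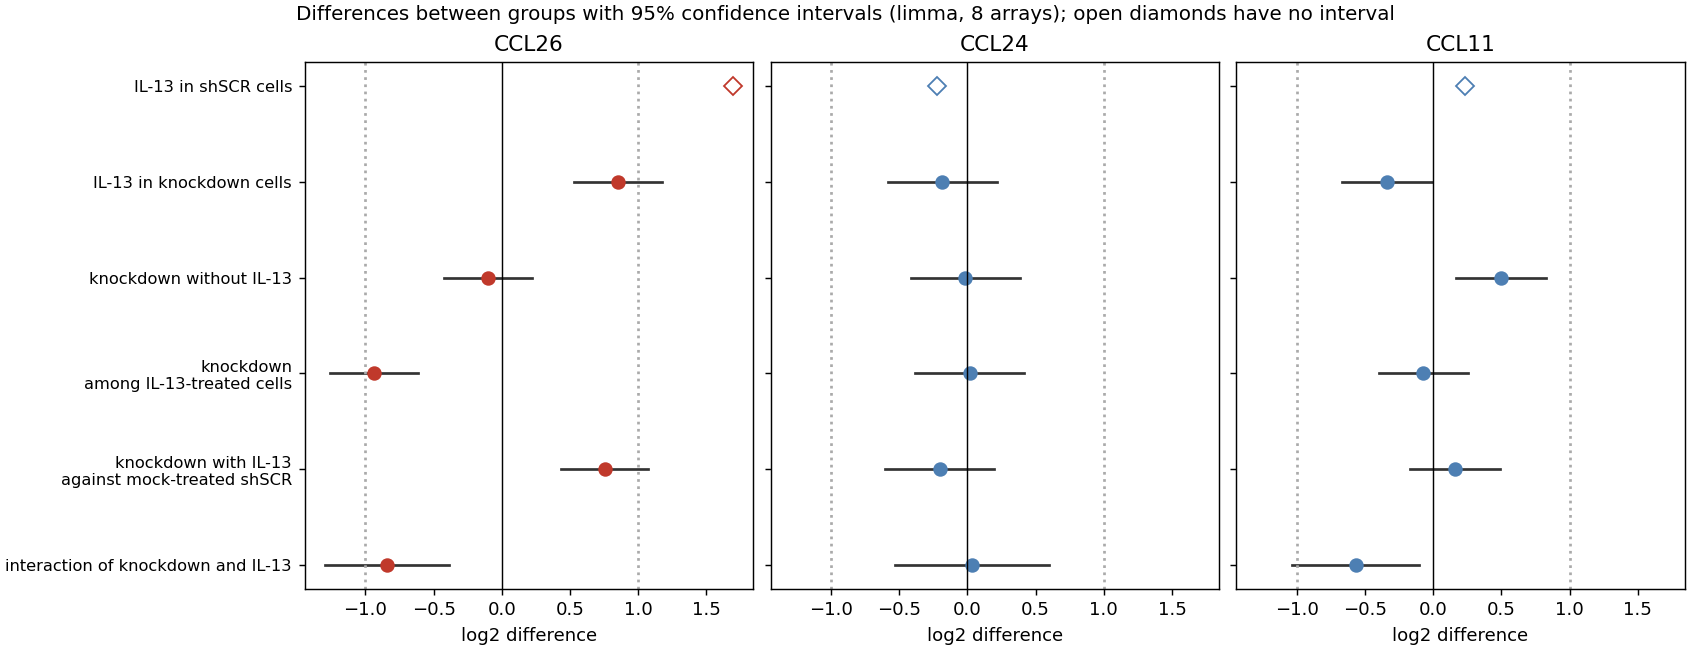
Log2 differences of CCL26, CCL24 and CCL11 in each comparison, with points for the limma estimate, horizontal lines for its 95% confidence interval and dotted lines at 2-fold in either direction. The open diamonds mark IL-13 in shSCR cells, the contrast used for selection, which has no interval. The CCL26 intervals lie clear of 0 except for the knockdown without IL-13, those of CCL11 lie clear of 0 for IL-13 in knockdown cells, the knockdown without IL-13 and the interaction, and all CCL24 intervals cross 0. None of the differences with an interval passed after adjustment, and all those of CCL26 but IL-13 in knockdown cells use some of the arrays it was selected on.

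No difference in CCL24 was called in any comparison. Its log2 values were 4.41 and 4.45 in mock-treated shSCR cells and 4.06 and 4.37 with IL-13, then 4.63 and 4.20 in mock-treated knockdown cells and 4.33 and 4.13 with IL-13. The group means ran from 4.21 ± 0.22 (SD, n = 2) in IL-13-treated shSCR cells to 4.43 ± 0.03 (SD, n = 2) in mock-treated shSCR cells, and the 2 mock-treated knockdown arrays spanned most of the range of the others. IL-13 gave a difference of -0.22 in shSCR cells, where the groups did not overlap, as for 36.7% of all features. In knockdown cells it gave -0.19 (95% confidence interval -0.59 to 0.21, limma adjusted p = 0.876). The knockdown gave -0.02 without IL-13 (-0.42 to 0.38, adjusted p = 0.987) and 0.02 with it (-0.38 to 0.42, adjusted p = 0.995), and the interaction was 0.03 (-0.53 to 0.60, adjusted p = 0.998). These intervals leave room for changes of up to about 0.6 on the log2 scale.

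CCL11 had its highest values in knockdown cells without IL-13. It measured 4.58 and 4.68 in mock-treated shSCR cells (4.63 ± 0.07, SD, n = 2) and 4.89 and 4.83 with IL-13 (4.86 ± 0.04, SD, n = 2). In knockdown cells it measured 5.31 and 4.95 without IL-13 (5.13 ± 0.25, SD, n = 2) and 4.70 and 4.87 with it (4.79 ± 0.12, SD, n = 2). Both mock-treated knockdown arrays stood above the other 6, and the IL-13-treated groups overlapped. The knockdown without IL-13 gave a difference of 0.50 (95% confidence interval 0.17 to 0.82), with a limma p of 0.00835 unadjusted and 0.38 adjusted. Without array A of the mock-treated knockdown pair the difference was 0.32. The groups did not overlap for 1 of 3 eotaxins there, CCL11, and for 41.2% of all features.

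The CCL11 response to IL-13 had opposite signs in the cell pools, 0.23 in shSCR and -0.34 in knockdown cells (95% confidence interval -0.67 to -0.01 in the latter, limma adjusted p = 0.704). The interaction was -0.57 (95% confidence interval -1.03 to -0.10, limma adjusted p = 0.989) and was not called. Its unadjusted limma p was 0.0224. The knockdown response of -0.34 depended on the mock-treated knockdown pair and was -0.16 without array A and -0.52 without array B. With the knockdown among IL-13-treated cells CCL11 differed by -0.07 (-0.40 to 0.26, adjusted p = 0.952). Against mock-treated shSCR cells, knockdown cells with IL-13 differed by 0.16 for CCL11 (adjusted p = 0.79) and by -0.20 for CCL24 (adjusted p = 0.773). All 3 eotaxins had groups that did not overlap in that comparison, as did 40.3% of all features.

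Within an array, the CCL26 difference with IL-13 was set against those of its paralogs. In shSCR cells the IL-13 difference of CCL26 exceeded that of CCL24 by 1.92 and that of CCL11 by 1.46 on the log2 scale, which is the selected contrast and is given as a description. In knockdown cells it exceeded that of CCL24 by 1.04 and that of CCL11 by 1.19. The exact two-sided permutation test over the 4 arrays gave p = 0.333 for both. This is the smallest that 2 against 2 arrays allow, so the test could not pass and cannot decide whether the genes differed. All 3 features were dim. CCL26 exceeded 37.6% to 45.8% of the negative control features on mock-treated arrays, 66.6% and 69.0% with IL-13 in shSCR cells, and 51.3% and 54.6% with IL-13 in knockdown cells. CCL24 exceeded 46.5% to 54.8% and CCL11 56.2% to 64.2% over the 8 arrays. The 95th percentile of those controls was 9.41 to 9.74, above every eotaxin value, so no detection limit was drawn from it, and summarised values of dim features tend to understate fold changes.

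The proteins that receive or trim eotaxins gave no call. The list held the eotaxin receptor CCR3, the receptors CCR2 and CX3CR1, the scavenging receptors ACKR1 and ACKR2, and DPP4, a protease that cleaves CCL11. None of the 6 was called by limma in any comparison. At an unadjusted p limma passed 0 of 6 with IL-13 in shSCR cells and 1 of 6, ACKR2, in knockdown cells, and the analysis of variance passed 1 in each, ACKR2 and CX3CR1. Of all features limma passed 6.79% and 6.93% unadjusted in these comparisons. In each other comparison at most 1 passed by either test. IL-13 differences ran from -0.13 to 0.09 (median 0.05) in shSCR and from -0.51 to 0.30 (median 0.04) in knockdown cells, where the median over all features was 0.0019 and 0.0157. CCR3 measured 2.43 to 3.08 on the 8 arrays, below the negative control medians. The other CCR3 ligands CCL5, CCL7, CCL8, CCL13 and CCL28 ran from -0.41 (CCL28) to 0.03 with IL-13 in shSCR cells and from -0.26 to 0.10 in knockdown cells. None of these 5 was called by limma, and none passed unadjusted by limma or the analysis of variance in any comparison.

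Of the 12 genes of the IL-13 receptor and STAT6 chain, limma called 1, IL13RA2 itself, which rose with IL-13 by 1.27 in shSCR cells (adjusted p = 0.0135) and by 1.76 in knockdown cells (adjusted p = 0.00264). The first call was lost without any 1 of the 4 shSCR arrays (adjusted p up to 0.16), and the second held with each of the 8 arrays left out. The signaling receptor chains and STAT6 were not called. IL4R differed by 0.01 and -0.07, IL13RA1 by -0.16 and -0.26, and STAT6 by -0.01 and -0.06 with IL-13 in shSCR and knockdown cells. Over all features 0.0583% and 0.0618% were called in these comparisons. The feedback inhibitors SOCS1 (-0.10 and 0.10), SOCS3 (0.15 and -0.28) and CISH (0.33 and 0.08) were not called either. Besides IL13RA2, limma passed CISH unadjusted in shSCR cells and IL13RA1 in knockdown cells, where it passed 6.79% and 6.93% of all features. The analysis of variance, for which no share over all features is given, also passed JAK1 in the former and IL13RA1 and IL2RG in the latter. The median of the list was 0.01 and 0.08.

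Of 15 measured genes listed as IL-13 and STAT6 targets, 3 rose with IL-13 in shSCR cells and 3 in knockdown cells. In both the 3 were SERPINB3, SERPINB4 and PDCD1LG2. Over all features 0.0583% and 0.0618% were called, in either direction. The first 2 encode protease inhibitors that are markers of IL-13-exposed epithelium, and PDCD1LG2 encodes the PD-1 ligand PD-L2. SERPINB4 rose by 4.65 and 3.69 (adjusted p = 7.6e-05 and 0.000458), SERPINB3 by 3.88 and 3.28 (adjusted p = 3.6e-05 and 0.000135), and PDCD1LG2 by 1.68 and 1.39 (adjusted p = 0.0143 and 0.0343) in shSCR and knockdown cells. The SERPINB3 and SERPINB4 calls held with each of the 8 arrays left out, whereas that of PDCD1LG2 was lost without any 1 of the 4 shSCR arrays in shSCR cells (adjusted p up to 0.16) and without any of the 8 in knockdown cells (adjusted p 0.085 to 0.227). The median over the 15 was 0.10 and -0.02, so most members stayed near the median of all features. Between IL-13-treated knockdown and shSCR cells SERPINB3 differed by 0.18, SERPINB4 by 0.04 and PDCD1LG2 by -0.36, beside -0.94 for CCL26. Limma called none of these 4 differences, and whether CCL26 differed from the other 3 was not tested. Their interactions were -0.60 for SERPINB3, -0.96 for SERPINB4 and -0.29 for PDCD1LG2, beside -0.84 for CCL26, and none was called.

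**Figure D2:**
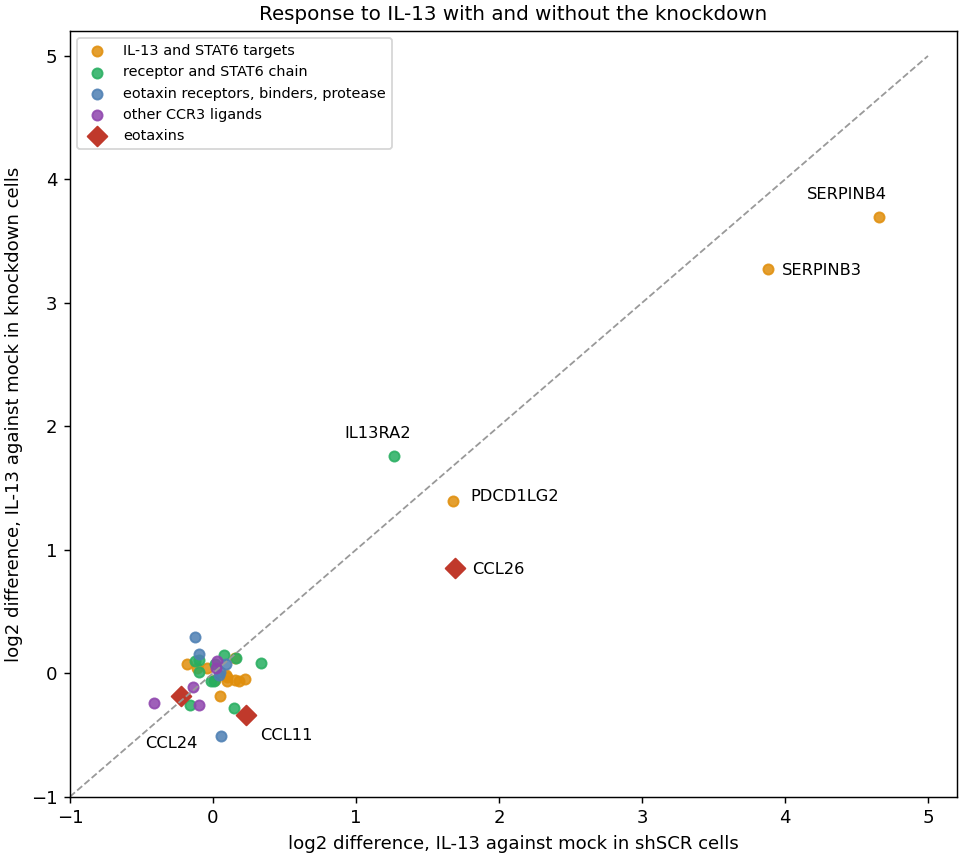
Log2 difference between IL-13 and mock treatment in shSCR cells (horizontal axis) and in knockdown cells (vertical axis) for the eotaxins (diamonds) and the genes of 4 lists (circles), with a dashed line where both are equal. CCL26 lies at 1.69 and 0.85, CCL24 and CCL11 lie near 0 with most list genes, and SERPINB3, SERPINB4, PDCD1LG2 and IL13RA2 lie apart.

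The listed chromosomal neighbors of the eotaxins gave no call. The 6 genes listed near CCL26 and CCL24 were HIP1, RHBDD2, POR, TMEM120A, STYXL1 and MDH2. Of these MDH2 lies outside the nearest annotated genes, and the nearer SPDYE5 and POM121C were not listed. IL-13 differences of the 6 ran from -0.18 to 0.09 in shSCR and from -0.05 to 0.28 in knockdown cells. Limma called none in any comparison, and for IL-13 in either pool none passed unadjusted by limma or the analysis of variance. Without IL-13 the knockdown values of these 6 were all below 0, from -0.40 to -0.02 with a median of -0.13 and a smallest adjusted p of 0.441, for MDH2, which alone passed unadjusted by limma there (9.51% of all features). RHBDD2 passed unadjusted by limma with the knockdown among IL-13-treated cells (0.41, adjusted p = 0.604) and in the interaction, beside 7.07% and 4.47% of all features. The analysis of variance passed TMEM120A and STYXL1 in the former and POR between knockdown cells with IL-13 and mock-treated shSCR cells. Of the 5 chemokine genes around CCL11 (CCL2, CCL7, CCL8, CCL13 and CCL1) limma called none, with IL-13 differences from -0.16 to 0.13 and from -0.26 to 0.10, and none passed unadjusted. Their knockdown differences without IL-13 ran from -0.23 to 0.29 with a median of 0.06, beside 0.50 for CCL11.

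Markers of other cell types were measured beside these values, since leukocytes and fibroblasts are sources of eotaxins. The mean log2 value of 8 eosinophil and leukocyte markers was 3.93 to 4.16 over the 8 arrays, and limma called none of them. Unadjusted, limma passed 0 of the 8 with IL-13 in shSCR cells and 1, CD3E, in knockdown cells, beside 6.79% and 6.93% of all features. The mean of 7 fibroblast and endothelial markers was 5.23 to 5.41, and limma called none. Of the 7, 1 passed unadjusted, the endothelial adhesion gene PECAM1, with IL-13 in either pool and with the knockdown without and with IL-13. In these knockdown comparisons limma passed 9.51% and 7.07% of all features unadjusted. In shSCR cells, where CCL26 stood highest with IL-13, the leukocyte mean was 4.14 and 4.16 without IL-13 and 4.03 and 3.93 with it, and the fibroblast and endothelial mean was 5.36 and 5.33 without IL-13 and 5.26 and 5.23 with it. For CCL11 the highest arrays, the mock-treated knockdown pair, had leukocyte means of 4.0 and 4.03 and fibroblast and endothelial means of 5.41 and 5.39. PECAM1 also had its highest values on that pair, 8.82 on both, against 8.33 and 8.08 in mock-treated shSCR cells, 7.71 and 7.83 with IL-13 in shSCR cells and 8.14 and 8.27 with IL-13 in knockdown cells. Its knockdown difference without IL-13 was 0.61 (limma adjusted p = 0.217), beside 0.50 for CCL11. In that comparison 2 of the 7 fibroblast and endothelial markers were above 0 and 5 below, with a median of -0.03. The other endothelial markers differed by -0.03 (VWF) and 0.22 (CDH5). The part of these cell types in the CCL11 values was not tested. In bulk RNA, fewer cells making a transcript and less of it per cell cannot be told apart.

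The genes with profiles most like that of CCL26 were TNFAIP6, SEMA3A, PDCD1LG2, GCNT3 and TNS4. They were the 5 with the highest Pearson r with CCL26 over the 8 arrays, among 139 features whose group means spanned more than 1 on the log2 scale, with r of 0.96, 0.93, 0.92, 0.91 and 0.91. The 8 arrays form 4 groups, so r largely reflects the group means and is given as a description. TNFAIP6, a hyaluronan-binding secreted protein, differed with IL-13 by 1.87 in shSCR and 1.42 in knockdown cells, and by -1.02 with the knockdown among IL-13-treated cells (limma adjusted p = 0.145, 0.321 and 0.494). SEMA3A, a secreted semaphorin, differed with IL-13 by 0.97 and 0.99, GCNT3, a mucin-type glycosyltransferase, by 1.38 and 1.20, and TNS4, a focal adhesion tensin, by 0.89 and 0.91. Of the 5, PDCD1LG2 alone passed the limma call with IL-13.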

How the data were processed

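RNA of MIV-Luc cells was measured on 8 Affymetrix GeneChip arrays. The authors deposited 1 log2 value per feature and array at the gene level, made by RMA (background correction, quantile normalization and probe summary) in Affymetrix Expression Console (version 1 in the submitters' processing notes). Quantile normalization removes shifts common to all genes. Of 33297 features, 4156 controls were left out and 29141 were tested without a filter. Columns were assigned to groups by construct and treatment. For arrays, their number limits the precision.

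Group means were fitted in limma 3.58.1 (R 4.3.3) over all 8 arrays (4 residual and 3.86 prior degrees of freedom), and p was adjusted by Benjamini-Hochberg over all features. A call needed an adjusted p under 0.05 and a fold above 2 (interaction: adjusted p alone). The script was tested on simulated data. One-way analysis of variance, which the methods name, was an alternative. The members, the gene lists and the tests were chosen with earlier results of these data known. Named genes were the eotaxins, IL13RA2, list members with an adjusted p under 0.05, others by role, and the 5 most alike in profile. Of 70 list genes, 68 were measured, and CCL15 and MUC5AC were not matched by symbol. A further list gene is not reported here. A gene with several features was read from the brightest.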

Additional observations from a re-analysis of the deposited data

Results flagged for a closer look

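The CCL11 response to IL-13 had opposite measured signs with and without the knockdown. Both IL-13-treated shSCR arrays (4.89 and 4.83) lay above both mock-treated ones (4.58 and 4.68), a difference of 0.23, whereas both IL-13-treated knockdown arrays (4.70 and 4.87) lay below both mock-treated ones (5.31 and 4.95), a difference of -0.34. The difference between these responses was -0.57 on the log2 scale, and limma's interaction test did not pass over all features (adjusted p = 0.989). Arrays that do not overlap were found for 36.7% of all features with IL-13 in shSCR cells and for 37.4% in knockdown cells. With each array left out in turn, the response in knockdown cells ran from -0.52 to -0.16 and the difference between responses from -0.75 to -0.39, both nearest to 0 without array A of the mock-treated knockdown pair. Groups of 2 arrays were not searched for single outlying arrays.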

How the results depend on the processing

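With 2 arrays per group and dim features, small differences were not detectable. No paired analysis was possible because the columns carry none of the labels' replicate numbers. CCL26 kept its sign in all alternatives for IL-13 in shSCR cells (1.61 to 1.78), IL-13 in knockdown cells (0.70 to 1.00, p 0.0416 to 0.816), the interaction (-0.99 to -0.69, p 0.799 to 1.0) and the knockdown with IL-13 present (-1.09 to -0.79, p 0.0244 to 0.815). The p of 0.0416 and of 0.0244 came from the methods' test without adjustment.

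Leaving out each array in turn turned the sign of some uncalled differences. CCL26 with the knockdown without IL-13 ran from -0.20 to 0.0008. CCL24 ran from -0.40 to 0.0298 with IL-13 in knockdown cells, from -0.23 to 0.20 with the knockdown without IL-13, from -0.14 to 0.17 with the knockdown in the presence of IL-13 and from -0.18 to 0.25 in the interaction. CCL11 with the knockdown among IL-13-treated cells ran from -0.16 to 0.0126. Of the list genes, 4 were called with IL-13 in shSCR cells, and 2 to 4 when an array was left out (2 without any of the 4 arrays compared). For the knockdown without IL-13 the count was 1, with 0 to 1 when an array was left out and 2 with an intensity trend and robust prior. For the knockdown among IL-13-treated cells it was 1, and 0 without any single array. The share of promoters with a motif was 13.5%, and 6.44% with the longer motif alone. The causes were not tested.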
